A study of Mus musculus with 115 samples.

Results

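Cadherins are transmembrane adhesion proteins, and this account describes 90 of their genes, among 22870 genes counted, in single dentate granule cells of mice. They are the rows named Cdh with a number or named Pcdh, without Pcdh11x. This rule uses names and no measured values, but it was set with earlier results of these data known. Of the 90 genes, 34 lie outside the protocadherin clusters (23 Cdh genes and 11 Pcdh genes). The clusters add 13 alpha, 22 beta and 21 gamma genes, which are described apart because alpha and gamma isoforms share exons.

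The RNA came from the cytosol of granule cells, drawn into a patch pipette from Rbp4-Cre mice (Cre driven by Rbp4 sequences) after injections on both sides of the brain. A retrograde AAV carrying EGFP was placed in the right ventral hippocampus of all mice, so that EGFP marks granule cells whose axon reaches the other side. Whether cells without EGFP lack such an axon was not tested. The left, recorded side received kainic acid (KA), an agonist of kainate-type glutamate receptors used to model temporal lobe epilepsy, or saline, together with a Cre-dependent AAV for mCherry. Cells were taken 2 weeks later, with or without mCherry. The 95 cells kept by the authors are 27 KA EGFP+, 36 KA EGFP-, 5 saline EGFP+ and 27 saline EGFP-. The study names 9, 3, 3 and 3 mice for these groups, but no label ties a cell to its mouse. Each group therefore counts as 1 sample, the spread given is over cells, and no test between groups was possible.

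As background, classical cadherins (types I and II) bind like partners on a neighbouring cell and tie the membrane to actin through catenins, and in the hippocampus they sit at synapses. Delta protocadherins have no catenin-binding tail. The delta-1 members bind protein phosphatase 1 alpha, and several delta-2 members recruit the WAVE complex, which drives actin branching. Clustered protocadherins are expressed in combinations that give neurons distinct surfaces. Several members have a known place in this circuit: mossy fibre synapses depend on Cdh9, and in rat hippocampus Pcdh8 (arcadlin) is induced by seizures and promotes the internalization of N-cadherin.

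The promoters of 3 members are printed because these genes stand at the ends of the results. Pcdh15 had the largest positive difference between KA and saline EGFP- cells, Pcdh19 the most negative one, and Pcdh8 the highest level. Each window runs from 250 bases before to 50 bases after the RefSeq start on GRCm38.p6, in the direction of transcription, with CANNTG and TATAAA matches in capitals. Pcdh15 is at chr10:73821617-73821916 (plus strand, a start inside the longer GENCODE gene), Pcdh19 at chrX:133688944-133689243 (minus strand) and Pcdh8 at chr14:79771263-79771562 (minus strand).
Pcdh15: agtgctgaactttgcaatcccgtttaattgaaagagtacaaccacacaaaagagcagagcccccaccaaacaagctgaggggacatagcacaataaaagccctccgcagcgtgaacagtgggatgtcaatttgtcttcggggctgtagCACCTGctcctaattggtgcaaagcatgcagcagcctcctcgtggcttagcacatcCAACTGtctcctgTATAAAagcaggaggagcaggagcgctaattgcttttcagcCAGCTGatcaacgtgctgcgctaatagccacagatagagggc
Pcdh19: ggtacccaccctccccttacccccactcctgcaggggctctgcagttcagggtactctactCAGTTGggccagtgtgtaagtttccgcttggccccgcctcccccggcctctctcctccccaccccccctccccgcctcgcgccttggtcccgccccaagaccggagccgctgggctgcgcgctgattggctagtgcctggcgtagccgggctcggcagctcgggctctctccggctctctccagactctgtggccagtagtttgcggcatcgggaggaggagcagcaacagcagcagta
Pcdh8: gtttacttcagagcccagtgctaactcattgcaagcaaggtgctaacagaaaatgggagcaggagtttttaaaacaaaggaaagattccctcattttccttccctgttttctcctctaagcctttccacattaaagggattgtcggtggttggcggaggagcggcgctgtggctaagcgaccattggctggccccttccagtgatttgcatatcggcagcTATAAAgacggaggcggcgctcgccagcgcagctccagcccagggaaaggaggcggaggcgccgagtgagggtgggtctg

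The windows of Pcdh15 and Pcdh8 hold a TATAAA 33 and 30 bases before the start, a motif found on either strand in 13.6% of 32851 RefSeq promoters, and that of Pcdh19 holds none. The GC content was 50.7% for Pcdh15, 54.3% for Pcdh8 and 67.7% for Pcdh19, against a median of 52.7% over those promoters. CANNTG occurs 3 times in the Pcdh15 window, once in that of Pcdh19 and not in that of Pcdh8, and 72.3% of promoters hold it. Activity-linked motifs searched on both strands, the CRE TGACGTCA (1.79% of promoters), the AP-1 motif TGACTCA (5.2%) and the Egr motif GCGTGGGCG (0.612%), had no match in these windows, nor in those of the other 8 named members with an entry read. No motif overlapped another in the 3 windows.

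The cells held 1277978 to 56183007 counts and 1469 to 9945 genes with a count. Sample titles fall into a first series (numbers up to 48, KA cells alone) and a second (above 200, all saline cells and some KA cells). Of the KA EGFP+ cells, 24 were in the first series and 3 in the second. KA EGFP- cells split into 21 in the first series, with a median of 6974 genes, and 15 in the second, with 3707, and saline EGFP- cells had 4448. Microglial markers (16 genes) made up 0.1% or more of the counts in 10 of 27 KA EGFP+, 5 of 36 KA EGFP-, 5 of 5 saline EGFP+ and 12 of 27 saline EGFP- cells. The granule cell list (10 genes) had median sums of 1286, 1068, 2256 and 3531 CPM in these 4 groups, with only Tdo2 at 0 in both KA groups. A CA3 and CA1 pyramidal cell list (6 genes) had median sums of 233.9, 213.2, 0.221 and 2.68 CPM, and an interneuron list (8 genes) 662, 761, 13.3 and 228.4 CPM. Within KA EGFP- cells the pyramidal list was at 253.98 CPM in the first title series and 0.347 CPM in the second, and the interneuron list at 718 and 1003 CPM. The part of these lists in the results was not tested. The quality labels did not match the deposited table: 13 kept cells were labelled failed and 12 absent ones passed, and each of the 20 absent cells followed a title labelled failed. A like shift in the treatment or EGFP labels was not tested.

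Of the 34 genes outside the clusters, 20 had a count in at least 10 of the 95 cells and were compared. Cdh26 and Pcdh18 had no count in any cell. The other 12 were below that limit: Cdh1, Cdh3, Cdh5, Cdh6, Cdh7, Cdh15, Cdh16, Cdh17, Cdh19, Cdh20, Cdh24 and Pcdh12. A cell held a count for a median of 12 of the 34 genes in KA EGFP+, 10.5 in KA EGFP-, 5 in saline EGFP+ and 9 in saline EGFP- cells. This number moved with the number of genes counted in the cell, with Spearman's rho of 0.84 as a description over the 95 cells. KA EGFP- cells of the first title series had a median of 14 members, against 7 in the second.

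**Figure D1:**
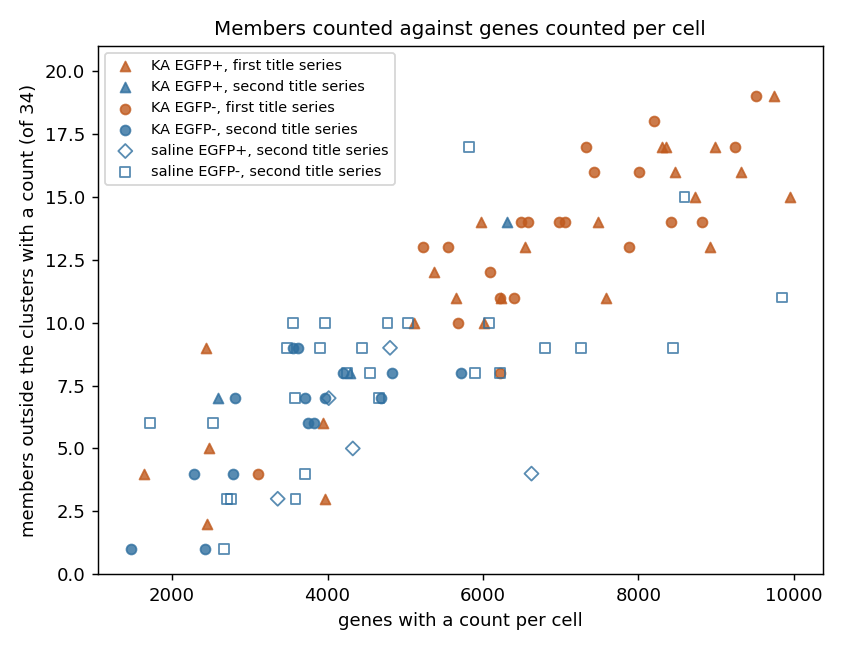
Number of the 34 members outside the clusters with a count in each cell, against the number of genes with a count, with marker shape for the group and colour for the title series. First-series KA cells reach the upper right, and second-series KA EGFP- cells, with 1 to 9 members, lie at the lower left among saline cells.

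Pcdh8 was the most widely counted member, in 82 of 95 cells, and per kilobase of exon it was the most abundant. Pooled over all cells it reached 182 CPM per kb, followed by Cdh9 with 51.5, Pcdh9 with 32.3 and Pcdh20 with 27.3 CPM per kb. The order after Pcdh8 differed between groups: Pcdh9 had rank 2 in KA EGFP- cells, with 38.7 CPM per kb, and rank 5 in saline EGFP- cells, with 13.6. Pcdh19 had 1.04 CPM per kb in KA EGFP- cells and 17.8 in saline EGFP- cells, where it had rank 4. Pcdh8 had 0, 391 and 1881 CPM (lowest, median and highest) in KA EGFP+ cells, 0, 608 and 2692 CPM in KA EGFP- cells, and 0, 632 and 4716 CPM in saline EGFP- cells. The 5 saline EGFP+ cells had 0, 0, 132, 896 and 1258 CPM. The groups overlapped over nearly their whole range, and neighbours in this order lay far closer than the SD over cells, 3.51 on the log2(CPM + 1) scale in KA EGFP- cells. Pcdh8 is a single-exon gene on chromosome 14 (79766775 to 79771312, minus strand), and 9.61% of its exon overlaps Gm9748 on the opposite strand, which unstranded reads cannot tell apart.

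Differences are given as the mean of log2(CPM + 1) in the first-named group minus that in the second, and a gene is called where the size is 1 or more. The comparison of KA EGFP- with saline EGFP- cells asks how granule cells without the EGFP label differ after KA. In KA EGFP- cells, 9 of 20 members were called higher and 3 lower. The background was 24.1% called higher and 8.71% called lower among 11888 genes. The members' median difference was 0.84, against 0.33 over all genes, and 0.09 without the microglia-rich cells. Within the second title series alone, 3 members were called higher and 6 lower, against backgrounds of 7.89% and 27.2%, and the median was -0.17, against -0.36 over all genes. First-series KA EGFP- cells against saline EGFP- cells gave 13 members higher and 1 lower, against backgrounds of 45.8% and 5.96%. The members called with the same sign over all titles and in the second series were Pcdh15, Cdh4 and Cdh2, higher in KA cells, and Pcdh19, Cdh8 and Cdh9, lower in KA cells.

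Pcdh19, an X-linked delta-2 protocadherin whose loss causes epilepsy in humans, was low in KA cells (chromosome X, 133582860 to 133688987, minus strand). It was counted in 7 of 36 KA EGFP- cells, with 0, 0 and 167 CPM, and in 23 of 27 saline EGFP- cells, with 0, 26.9 and 1712 CPM. Most KA cells were thus at 0, and 4 saline cells were as well, so the ranges overlapped. The mean log2(CPM + 1) was 1.02 ± 2.31 in KA EGFP- cells and 4.79 ± 3.78 in saline EGFP- cells (SD over 36 and 27 cells). The difference was -3.78 over all titles, -4.26 in the second title series and -3.43 for first-series KA cells against saline cells. With each cell thinned to 1000000 counts, 16.7% of KA EGFP- cells (exact binomial 95% interval 6.37 to 32.8%) and 74.1% of saline EGFP- cells (53.7 to 88.9%) held a Pcdh19 count. These intervals take cells as independent draws and do not cover differences between mice. Without the microglia-rich cells the difference was -4.84.

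Pcdh15, a component of the tip links of inner-ear hair cells, went the other way (chromosome 10, 73099342 to 74649737, plus strand). It had 0, 33.3 and 1125 CPM in KA EGFP- cells and was counted in 24 of 36. In saline EGFP- cells it was counted in 4 of 27, with 17.97 CPM at most. The upper part of the KA range therefore lay above every saline cell, and the ranges met at low values. The difference for Pcdh15 was 4.05 over all titles and 2.72 in the second series, where 6 of 15 KA cells held it, with up to 1125 CPM. It was 1.22 between the 4 KA and 15 saline cells of that series with at least 4000 genes. Cdh23, the partner of Pcdh15 in hair cells, was counted in only 12 of 95 cells and differed by -0.18.

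**Figure D2:**
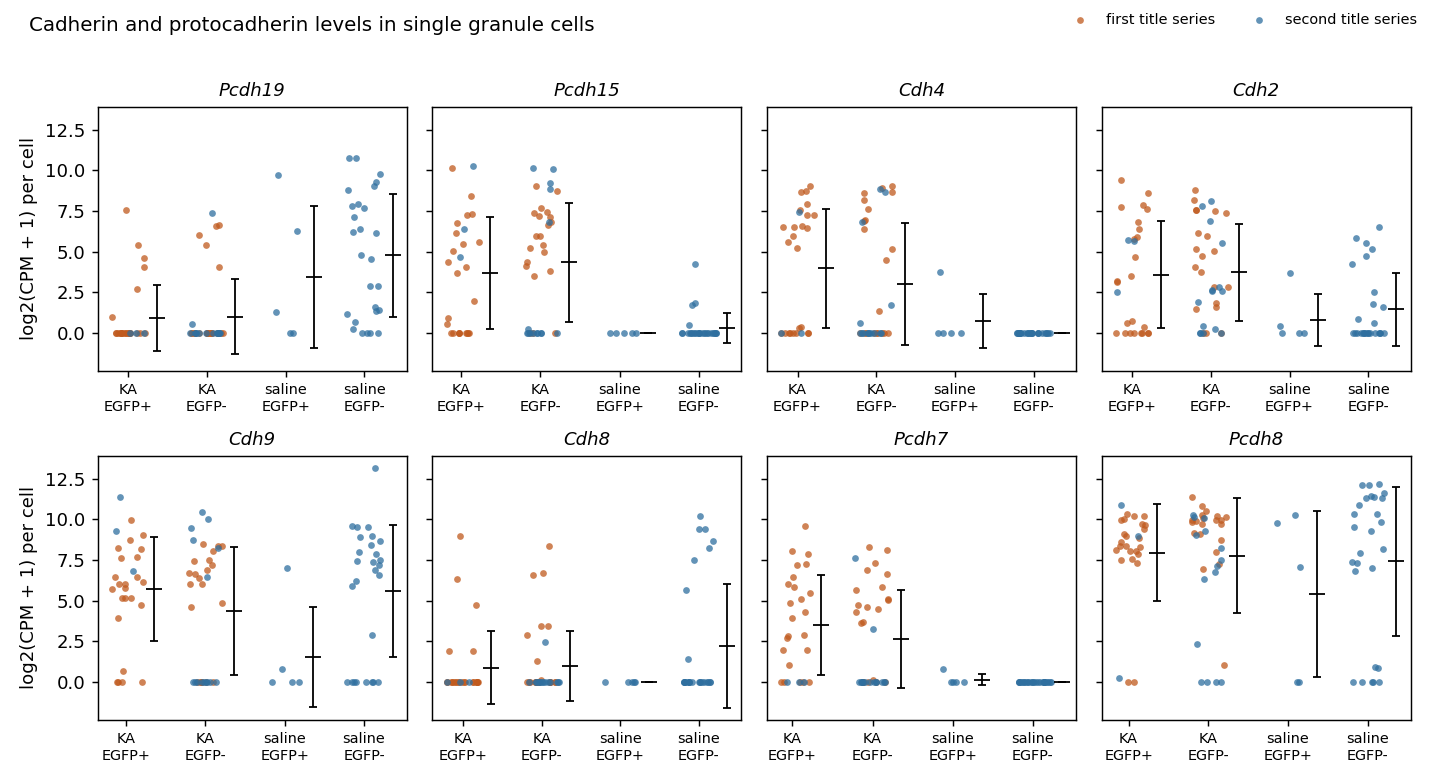
Levels of 8 members in each cell as log2(CPM + 1), by group, with colour for the title series, and with the mean and SD over cells beside each group as black bars. Pcdh19 is mostly at 0 in both KA groups, Pcdh15, Cdh4 and Pcdh7 are at 0 in most saline cells, and Pcdh8 spans the same range in KA and saline cells.

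Both measured type I cadherins were called higher in KA EGFP- cells. Cdh4 (R-cadherin; chromosome 2, 179442431 to 179899373, plus strand) had 0, 0 and 516 CPM in KA EGFP- cells and was counted in 17 of 36. It had no count in any of 27 saline EGFP- cells, which allows a share of cells with a count of up to 11.1% if 3 cells are taken as the limit that a count of 0 allows, and up to 12.8% as the upper end of the exact binomial 95% interval. Cdh4 differed by 3.03 over all titles and by 1.78 in the second series, where 5 of 15 KA cells held it. Cdh2 (N-cadherin, chromosome 18, the main synaptic classical cadherin) had 0, 6.25 and 447 CPM in KA EGFP- cells, against 0, 0 and 92.5 CPM in saline EGFP- cells. It was counted in 29 of 36 and 11 of 27 cells, and the ranges overlapped. The Cdh2 difference was 2.27 over all titles and 1.32 in the second series, but 0.59 among second-series cells with at least 4000 genes. The remaining 3 type I genes were below the limit of 10 cells or without counts.

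Among 7 measured type II cadherins, 2 were called higher and 2 lower in KA EGFP- cells. Cdh9, required at mossy fibre synapses, had 0, 63.8 and 1392 CPM in KA EGFP- cells and 0, 148 and 9140 CPM in saline EGFP- cells (chromosome 15, 16728756 to 16857094, plus strand). It was counted in 21 of 36 and 19 of 27 cells. Cdh9 differed by -1.22 over all titles and -2.03 in the second series, but by -0.65, short of a call, for first-series KA cells. Cdh8 (chromosome 8, 99024471 to 99416471, minus strand) had 0, 0 and 337 CPM in KA EGFP- cells and 0, 0 and 1168 CPM in saline EGFP- cells. It was counted in 9 of 36 and 8 of 27 cells over all titles, and in 1 of 15 KA EGFP- cells of the second series. The Cdh8 difference was -1.26 over all titles, -2.08 in the second series and -0.35 among cells with at least 4000 genes. Cdh22 and Cdh12 differed by 2.16 and 1.60 over all titles, and by 0.21 and -0.09 in the second series. Cdh10, Cdh11 and Cdh18 differed by less than 1.

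The delta-1 protocadherins and T-cadherin were called higher over all titles and not within the second title series. Pcdh7 had 0, 0.0512 and 310 CPM in KA EGFP- cells, counted in 16 of 21 first-series and 2 of 15 second-series cells. It had no count in 27 saline EGFP- cells, again allowing a share of up to 11.1%. The Pcdh7 difference was 2.65 over all titles and 0.73 in the second series, and 21.1% of its exon overlaps 4932441J04Rik on the opposite strand. Pcdh9 had 0, 130 and 2321 CPM in KA EGFP- cells and 0, 1.02 and 461 CPM in saline EGFP- cells, with differences of 1.82 over all titles and 0.20 in the second series. Pcdh1 differed by 1.92 over all titles and 0.02 in the second series. Cdh13 (T-cadherin, anchored by a lipid with no tail in the cell) had 0, 127 and 1005 CPM in KA EGFP- cells and 0, 0 and 778 CPM in saline EGFP- cells. The Cdh13 difference was 2.09 over all titles and 0.19 in the second series. With KA treatment the same, first-series minus second-series EGFP- cells gave 3.30 for Pcdh7, 3.26 for Pcdh1, 2.78 for Pcdh9 and 3.25 for Cdh13. The median over all genes was 1.27 there. The first series holds no saline cell, so a KA difference within that series could not be measured for these 4 genes.

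Pcdh17, Pcdh8 and Pcdh20 had a sign that depended on the title series. Pcdh17, a delta-2 protocadherin known from presynaptic sites, had 0, 92.2 and 1480 CPM in KA EGFP- cells and 0, 20.1 and 842 CPM in saline EGFP- cells. It was counted in 20 of 21 first-series KA cells, 4 of 15 second-series KA cells and 22 of 27 saline cells. The Pcdh17 difference from saline EGFP- cells was 2.35 for first-series KA cells and -2.55 in the second series. Pcdh8 differed by 1.77 and -1.60 in these same settings, and Pcdh20 by 2.53 and -1.32. Pcdh10, a delta-2 protocadherin that recruits WAVE proteins, differed by 0.15 and -0.52, below the call in both.

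**Figure D3:**
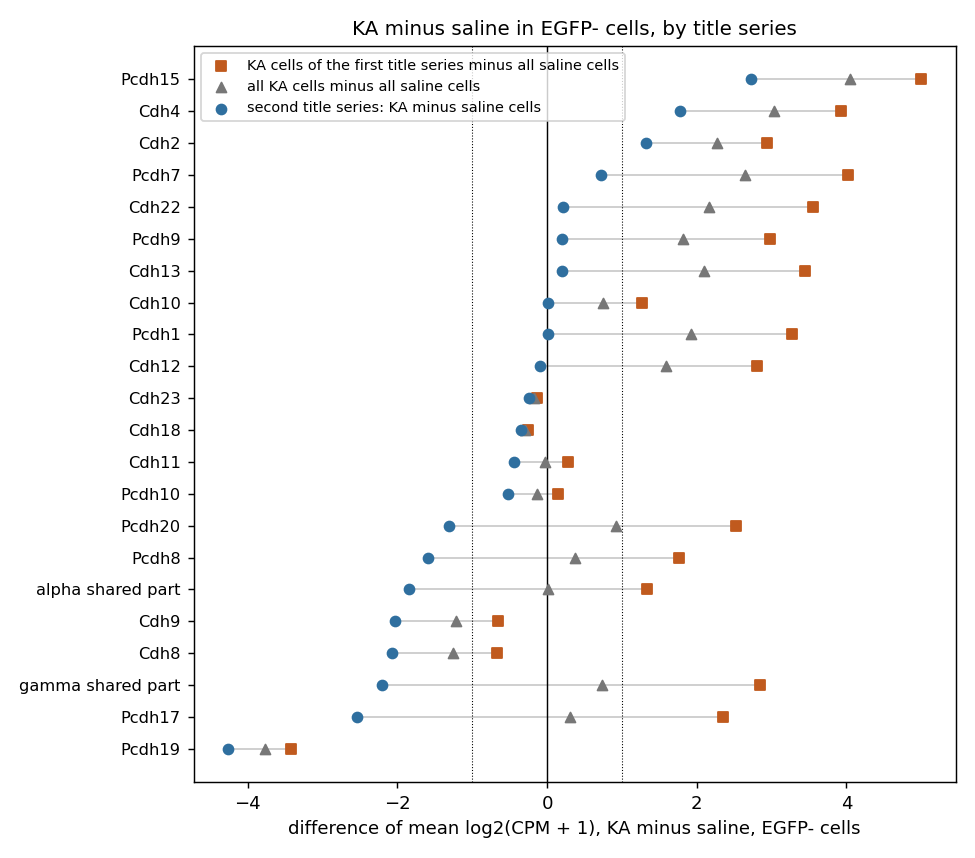
Difference of mean log2(CPM + 1), KA minus saline EGFP- cells, for the 20 measured members and the shared parts of the alpha and gamma clusters. Squares use first-series KA cells against all saline cells, triangles all cells and circles the second title series, with dotted lines at -1 and 1. Pcdh15, Cdh4 and Cdh2 lie right of 1 in all 3, and Pcdh19 lies left of -1 in all 3.

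Between first-series and second-series KA EGFP- cells, which share treatment and EGFP class, 15 of 20 members were called higher in the first series and 0 lower, against backgrounds of 58.1% and 2.20%. The members' median difference was 2.21, against 1.27 over all genes. Pcdh17 differed most, by 4.89, with 0, 155 and 548 CPM in first-series cells and 0, 0 and 1480 CPM in second-series cells. Pcdh20 differed by 3.84 and Pcdh19 by 0.84. First-series cells had more genes counted, 6974 against 3707 at the median, and the part of this in the members' differences was not tested. No microglia-rich cell was among the 21 first-series KA EGFP- cells, against 5 of the 15 in the second.

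The KA EGFP+ and saline EGFP+ cells did not enter the differences between EGFP- cells above. They did count toward the choice of the 20 members and toward the levels pooled over all cells. Their comparison is thus not fully separate from the results above. Between KA EGFP+ and saline EGFP+ cells, 16 of 20 members were called higher and 1 lower, against backgrounds of 50.3% and 9.17%. The median was 2.64, against 1.01 over all genes. Pcdh19 was the member called lower, counted in 6 of 27 KA EGFP+ cells with at most 189 CPM. The saline EGFP+ cells had 0, 0, 1.45, 77.5 and 834 CPM of Pcdh19, and the difference was -2.52. Pcdh15 had 0, 15.9 and 1212 CPM in KA EGFP+ cells and 0 in all 5 saline EGFP+ cells, which allows a share of cells with a count of up to 60%. The Pcdh15 difference was 3.67. Cdh4 was counted in 17 of 27 KA EGFP+ cells, with up to 518 CPM, and in 1 of 5 saline EGFP+ cells, with 12.5 CPM, a difference of 3.23. Cdh2 had 0, 8.04 and 666 CPM in KA EGFP+ cells, against 0, 0, 0, 0.328 and 11.7 CPM in saline EGFP+ cells. Cdh9 and Cdh8 were both lower in KA among EGFP- cells. Here most saline EGFP+ cells had no count of either, and neither gene was lower in KA. Cdh9 had 0, 65.2 and 2618 CPM in KA EGFP+ cells, against 0, 0, 0, 0.725 and 127 CPM in saline EGFP+ cells, a difference of 4.16. Cdh8 differed by 0.89, with no count in the saline EGFP+ cells, so a lower value in KA could not have been seen. Whether the KA difference itself depends on EGFP class was not tested.

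In this pair the titles leave 3 KA EGFP+ cells in the same series as the 5 saline EGFP+ cells. There 11 members were called higher and 1 lower in KA EGFP+ cells, against backgrounds of 31.9% and 24.2%. The 3 KA EGFP+ cells had 24.2, 84.0 and 1212 CPM of Pcdh15, all above the saline EGFP+ cells at 0. Pcdh17 had 69.1, 200 and 307 CPM in these KA EGFP+ cells, against 0, 0, 0, 5.58 and 39.2 CPM in saline EGFP+ cells, again without overlap. Of all genes, 1.56% had every one of these KA EGFP+ cells above every saline EGFP+ cell. All 3 KA EGFP+ cells were at 0 for Pcdh19, as were 2 of the saline EGFP+ cells. Cdh4 was held by 1 of the 3, with 170 CPM. Microglial markers made up 0.466 to 4.89% of the counts in the saline EGFP+ cells and at most 0.0131% in these 3 KA EGFP+ cells, and their part in the differences was not tested.

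The comparison of KA EGFP+ with KA EGFP- cells asks whether KA-treated granule cells with the EGFP label differ from those without it. Here the members' values depended on the title series. Over all titles, of 20 members, 2 were called higher and 1 lower, against backgrounds of 13.7% and 3.38%, and the median was 0.28, against 0.22 over all genes. Cdh9 and Pcdh10 were called higher with the same sign in both title series. Cdh9 had 0, 65.2 and 2618 CPM in KA EGFP+ cells, counted in 23 of 27, and 0, 63.8 and 1392 CPM in KA EGFP- cells, counted in 21 of 36. The Cdh9 difference was 1.36 over all titles, 0.35 in the first series, 5.59 in the second and -1.21 for titles 20 to 48. Within the first series only that stretch holds both EGFP classes, and its KA EGFP+ cells are titles 21, 23, 27, 38 and 45 alone. Pcdh10 (chromosome 3, 45378398 to 45435623, plus strand) was counted in 13 of 27 KA EGFP+ cells, with up to 997 CPM, and in 8 of 36 KA EGFP- cells, with up to 75.01 CPM. The Pcdh10 difference was 1.17 over all titles, 0.90 in the first series, 1.49 in the second and 0.35 for titles 20 to 48. Over all members, titles 20 to 48 gave 1 higher and 8 lower in KA EGFP+ cells, against backgrounds of 14.9% and 26.1%. Pcdh19 had nearly the same mean in both classes, 0.94 ± 2.05 in the 27 cells with EGFP and 1.02 ± 2.31 in the 36 without (SD over cells).

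Within the first title series, 0 of 20 members were called higher and 7 lower in KA EGFP+ than in KA EGFP- cells, against backgrounds of 6.08% and 17.3%. The median was -0.45, against -0.21 over all genes. Pcdh1 differed by -2.67, with 0, 0.209 and 187 CPM in KA EGFP+ cells and 0, 39.3 and 557 CPM in KA EGFP- cells. Pcdh1 is a delta-1 protocadherin on chromosome 18. Pcdh15 differed by -2.06 and Cdh22 by -2.03, and Cdh13, Cdh12, Pcdh17 and Pcdh8 by -1.74, -1.58, -1.34 and -1.07. In the second series, with 3 KA EGFP+ cells, 8 members were called higher and 3 lower, against backgrounds of 29.5% and 19.8%. There Pcdh1 differed by 1.21 and Pcdh15 by 4.07, the opposite sign. Microglia-rich cells were 10 of 24 first-series KA EGFP+ cells and 0 of 21 first-series KA EGFP- cells.

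Between saline EGFP+ and saline EGFP- cells, 0 of 20 members were called higher and 11 lower, against backgrounds of 11.7% and 31.4%. The median was -1.22, against -0.44 over all genes. Pcdh8 and Pcdh19, the most widely counted delta-2 members in saline EGFP- cells together with Pcdh17, were each held by 3 of the 5 saline EGFP+ cells. Pcdh19 pooled over cells was 250 CPM in saline EGFP+ cells and 187 CPM in saline EGFP- cells, although the mean of log2(CPM + 1) was lower in saline EGFP+ cells, 3.46 ± 4.35 against 4.79 ± 3.78 (SD over 5 and 27 cells). The pooled value rested on 1 cell with 834 CPM. All 5 saline EGFP+ cells were microglia-rich, so EGFP class and microglial RNA cannot be told apart here.

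The alpha and gamma rows measured mostly 1 shared signal each. Every alpha isoform joins its own variable exon to the same 3 constant exons, and gamma isoforms do likewise with theirs. In the GENCODE annotation 2860 bases are common to 12 alpha genes and 2116 to all 21 gamma genes, and none to the 22 beta genes. The lowest row of a cluster in a cell was taken as the shared part, and the excess of a row as its own counts. In the gamma cluster a shared part was present in 68 of 95 cells, it equalled the median row in 66 of them, and it made up 95.8% of the summed gamma rows. In the alpha cluster it was present in 45 cells and made up 86.8%. The Pcdha11 row held at least 2 times the shared part in all 45, exactly so in 39, and its symbol has 2 GENCODE identifiers, so 2 shares were subtracted there.

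The gamma shared part had 0, 163 and 690 CPM in KA EGFP- cells and 0, 28.4 and 1151 CPM in saline EGFP- cells, with overlapping ranges. It was present in 24 of 36 and 19 of 27 cells. The difference for the gamma shared part was 0.74 over all titles, 2.84 for first-series KA cells and -2.20 in the second series, so its sign depended on the titles, as for Pcdh17. The alpha shared part differed by 0.01, 1.33 and -1.85 in these settings. Between KA EGFP+ and KA EGFP- cells the gamma shared part was 6.39 ± 3.35 and 5.09 ± 3.89 on the log2(CPM + 1) scale (SD over 27 and 36 cells), a difference of 1.31. That difference was -0.58 in the first title series, -0.60 for titles 20 to 48 and 2.51 in the second series, so its sign depended on the titles too.

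Beyond the shared part, Pcdhgc5 was the isoform seen most widely, with at least 1 CPM of its own in 44 of 95 cells. These were 15 KA EGFP+, 19 KA EGFP-, 1 saline EGFP+ and 9 saline EGFP- cells. Pcdhga12 followed with 23 cells, Pcdhgc4 with 16, and Pcdhgc3 and Pcdhgb7 with 14 each. In the alpha cluster Pcdhac2 had own counts in 21 cells and the next, Pcdha11, in 7. The limit of 1 CPM was not scaled to exon length. Pcdhgc5 and Pcdhac2 have the most bases of their own among the annotated rows of their clusters, 5508 and 3028. Pcdhgb5, with 4614 such bases, was seen in 2 cells. The part of length in this order was not tested. C-type isoforms such as Pcdhgc5 and Pcdhac2 are, as background, the ones expressed without random promoter choice in many neurons. Pcdhb7 led the beta cluster, in 14 cells, followed by Pcdhb9 with 13 and Pcdhb17 with 11.

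A cell held 0 to 9 gamma isoforms with own counts, with a median of 2 in KA EGFP+, 1.5 in KA EGFP-, 1 in saline EGFP+ and 1 in saline EGFP- cells. First-series KA EGFP- cells had a median of 3 and second-series ones of 1. For alpha the range was 0 to 3 and for beta 0 to 6 isoforms. Of the KA EGFP- cells, 11 of 36 held 2 or more beta isoforms, all in the first title series, against 0 of 27 saline EGFP- cells, which allows a share of up to 11.1%. Of the beta genes, 5 passed the limit of 10 cells. The alpha and gamma genes all passed it through the shared part, so that is no count of expressed isoforms.

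**Figure D4:**
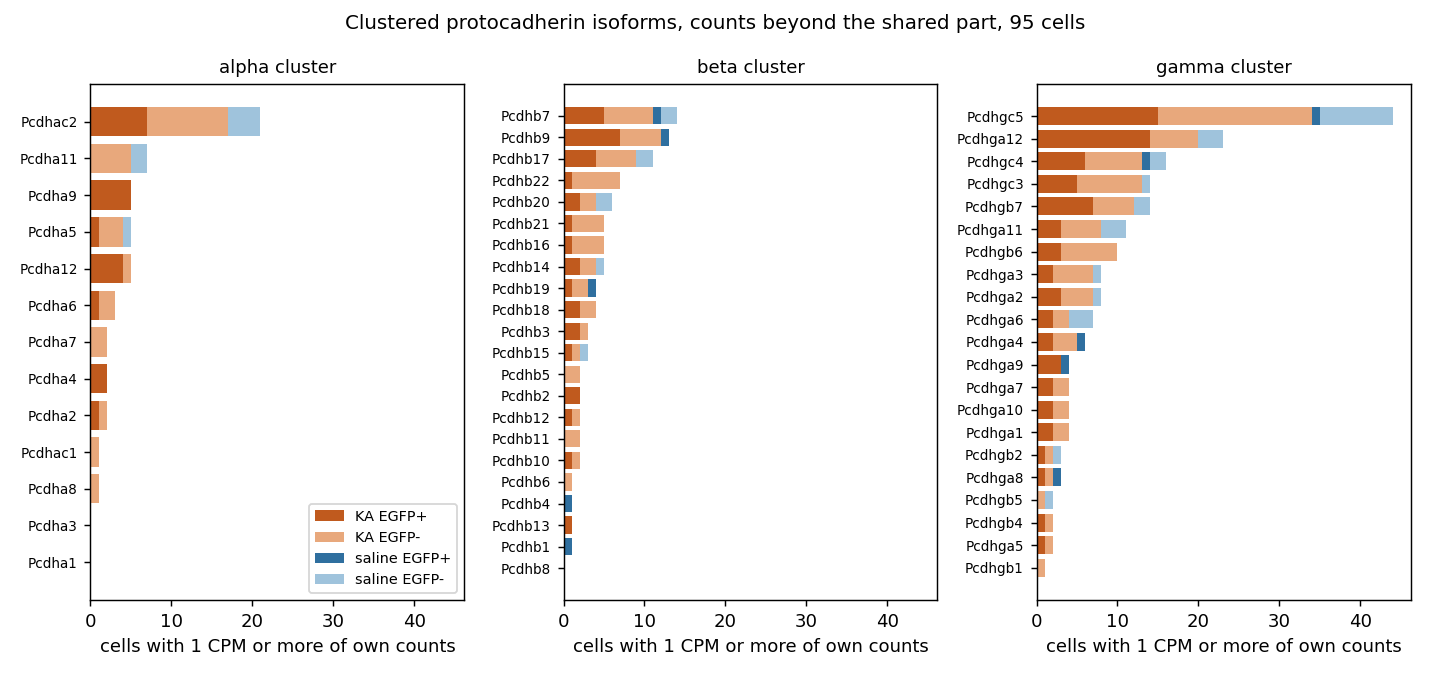
Number of cells with 1 CPM or more of own counts for each alpha, beta and gamma gene, as horizontal bars stacked by group, out of 95 cells. Pcdhgc5 (44 cells), Pcdhga12 (23) and Pcdhac2 (21) have the longest bars, and Pcdha1, Pcdha3 and Pcdhb8 have none.

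Genes that act with cadherins were taken as lists. Between KA EGFP- and saline EGFP- cells, 2 of 10 measured catenin and p120 genes were called higher and 1 lower, near the backgrounds of 24.1% and 8.71% over all genes. Pkp4 and Arvcf, p120 relatives, differed by 1.78 and 1.15, and Ctnna1 (alpha-E-catenin) by -2.11 and Ctnna2 by -0.12. Ctnna1 kept the sign in the second title series, with -2.26, and Ctnnb1 (beta-catenin) differed by 0.87 and -1.02. Of the WAVE complex, the actin regulator that delta-2 protocadherins recruit, 0 of 9 genes were called higher and 4 lower, against the same backgrounds of 24.1% and 8.71%. Their median difference was -0.996, against 0.33 over all genes. Abi1 and Wasf1 had the most negative values, -2.06 and -2.03, and Cyfip2 and Wasf3 the highest, 0.91 and 0.59. In the second series 5 of the 9 were called lower (background 27.2%), with a median of -1.07, against -0.36 over all genes.

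Of 12 other cadherin superfamily genes, 4 were called higher in KA EGFP- than in saline EGFP- cells and 0 lower (backgrounds 24.1% and 8.71%). Fat3, a giant cadherin, differed by 2.84 over all titles and 1.89 in the second series, and Clstn3 (calsyntenin-3, a synaptic organizer) by 2.80 and 0.39. The smallest differences in that list were 0.03 for Celsr1 and 0.03 for Fat4. Of 11 genes of cadherin cleavage and protocadherin promoter choice, 2 were called higher and 1 lower, near those backgrounds. Ncstn (nicastrin, a gamma-secretase subunit) differed by 1.26 over all titles and -1.53 in the second series. Smchd1, a chromatin protein that silences clustered protocadherins, differed by 1.20 and 1.22. Nipbl, the cohesin loader, differed by -1.05 and -2.03, and Smc1a, a cohesin subunit, by -0.35 and -2.59.

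Over 45 first-series KA cells, Cdh4 and Pcdh15 varied together most, with Spearman's rho of 0.58, the highest of 190 pairs of the 20 members. Cdh2 and Pcdh17 followed with 0.50, and the lowest was -0.34, for Pcdh7 and Pcdh9. These are descriptions over cells of 1 title series that differ in depth and come from an unknown number of mice.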

How the data were processed

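Whole-number read counts per gene symbol, deposited by the authors, were used for the 95 cells in the table that passed their quality control. Treatment and EGFP class came from the labels, which name no mouse. The submitters' processing notes name STAR, featureCounts, Trimmomatic and kallisto with build GRCm38; their versions and settings are not given in the sources used here. Libraries were made with Nextera XT, per the labels' protocols, which does not mark strand, and no molecular barcodes are described. The intervals printed take cells as independent draws, so they do not cover differences between mice. The authors' deposited normalized signal is the count times 1 factor per cell (0.118 to 147.5) and served as an alternative. The 92 spike-in rows (6 counts) were left out.

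Counts were scaled to CPM (counts times 1000000 over the cell's total) and compared as means of log2(CPM + 1), with a pseudocount of 1, over rows with a count in at least 10 cells. No test was made. Members described in full were those called over all titles whose difference had the same sign, called or not, in the second title series (or, between EGFP classes, in both series), and those counted in at least 50% of cells. The members and lists were chosen with earlier results of these data known. Exons came from GENCODE M21 and promoters from RefSeq (GRCm38.p6), with entries for 11 of the 15 named members. On simulated data 200 of 200 changed genes were recovered, which checks the calculation on the simulated counts alone. It gives no recovery rate for the members, many of which lack a count in many cells and vary widely between cells. Python 3.11.15, pandas 2.3.3, numpy 2.4.6, scipy 1.17.1 and matplotlib 3.10.9 were used.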

Additional observations from a re-analysis of the deposited data

Results flagged for a closer look

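In the group of 5 saline EGFP+ cells, 1 cell stood far from the other 4 for 9 of the 15 members described in full. Values are log2(CPM + 1). One cell was high for 5 members: Cdh2 at 3.67, Cdh22 at 2.05, Cdh4 at 3.76, Pcdh1 at 1.36 and Pcdh9 at 5.27. A different cell was high for Cdh13, at 7.24, and another for Cdh9, at 7.00. The fourth was the only one of the 5 with a count of Pcdh10 or of Pcdh7, at 0.79 for each, which is 0.725 CPM. The Cdh22 value came from 4 counts, at 3.13 CPM, and that of Pcdh1 was 1.56 CPM. The values of these 4 genes thus rest on very few counts. Most of the other cells were at 0 for these genes, so a single cell with counts is enough to stand apart. Chance alone would set apart about 1 in 20 groups of values without such ties.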

How the results depend on the processing

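For KA EGFP- against saline EGFP- cells (9 members higher, 3 lower), the number higher was 3 in the second title series. The number lower was 1 with a pseudocount of 10 CPM and for first-series KA cells, 5 from summed counts, 6 in the second series and 8 among its cells with at least 4000 genes, where the Pcdh1 difference was -1.31 (4 KA and 15 saline cells). The members' median of 0.84 was 0.09 without microglia-rich cells and 0.07 with no limit on low values. For KA EGFP+ against KA EGFP- cells (2 higher, 1 lower), the number higher was 7 on the authors' normalized signal, 0 with a pseudocount of 10 CPM, 31 with all cluster rows and 4 with the shared parts counted once each. It was 1 with at least 4000 genes, 1 relative to the median of all genes, 0 in the first series, 8 in the second and 1 for titles 20 to 48. The number lower was 2 on normalized signal, 0 with that pseudocount, 3 without microglia-rich cells, 2 from summed counts and 4 for cells also labelled passed. It was 3 with at least 4000 genes, 2 relative to the median, 7 in the first series, 3 in the second and 8 for titles 20 to 48. There the Cdh9 difference was -1.21, and that of Pcdh1 was 1.21 in the second series. For saline EGFP+ against saline EGFP- cells the median was -0.23 with no limit on low values and -1.46 to -0.58 with 1 saline EGFP+ cell left out, and Pcdh19 was 0.42 from summed counts. For KA EGFP+ against saline EGFP+ cells the median was 4.71 from summed counts and 2.19 to 2.84 with 1 saline EGFP+ cell left out. The causes of these shifts were not tested. Settings with first-series cells against saline, shared parts counted once and second-series cells with at least 4000 genes were chosen after seeing the data. Leaving out microglia-rich cells leaves no saline EGFP+ cell. No paired analysis was possible because the groups share no replicate that the labels tie to a mouse. At the depth of these libraries, and with cells taken as independent draws, a count of 0 in 27 cells allows a share of up to 11.1%.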
